A study of Brassica rapa with 5 samples.

Results

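The leaf response of Brassica rapa to Fe deficiency was described by comparing 2 of the 5 deposited expression tables, the one for plants moved to 0.05 µM Fe and the one for plants kept at 3 µM Fe. These 2 were taken because their titles name Fe deficiency and the normal condition. Both groups were accession R-o-18, raised hydroponically in half-strength Hoagland's solution with a normal supply of 2 µM Zn, 3 µM Fe and no Cd for 14 days and then kept on their own solution for 7 days. The labels give 3 replicates per condition with 3 plants in each; the first pair of expanded leaves was taken, and Fe was given as Fe(Na)EDTA. The other 3 tables, for plants given 0.005 µM Zn, 50 µM Zn or 1 µM Cd, were used for the pooled spread and as levels set beside the results. Each table is the mean of 3 libraries, so each condition is 1 sample. Of 29183 genes listed in any table, 27336 were listed in 1 or both of these 2, and 11018 had a mean of at least 5 TPM over both and were compared. TPM is the number of tags of a gene per 1000000 clean tags, a term of the file headers.

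Fe is a cofactor of the photosynthetic electron transport chain, of Fe-S proteins and of haem enzymes, and chlorophyll synthesis depends on it, so that leaves short of Fe turn pale. In Arabidopsis, a relative of B. rapa, leaves respond to Fe shortage by raising transcripts of regulators and of genes for metal chelation and transport, and by lowering transcripts of the Fe store ferritin and of Fe-containing enzymes. The files give genes by identifier only. None of the 29183 identifiers was found in the reference gene table used here, so the genes below carry no names or roles, the leaf label could not be checked against marker genes, and the Arabidopsis gene groups could not be looked up.

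Clean tags per library averaged 5828730 in the normal supply and 5867647 under Fe deficiency, of which 57.2% and 58.6% were assigned to genes. A deposited value is a mean, but the tag column and the TPM column weight the 3 libraries by their different totals, and their disagreement gives for each gene 1 contrast between the libraries. In the normal supply and under Fe deficiency it sets mainly the library with the lowest total against the other 2. It is called the library contrast below. Expressed as a coefficient of variation, this spread was 22.0% in the normal supply and 27.5% under Fe deficiency for genes at 5 to 30 TPM, where counting error alone would give 13.2% and 13.0%. For genes at 300 TPM or more it was 18.2% and 23.4%, with counting error of 1.66% and 1.70%. Nothing in the labels says whether the replicate pools came from separate runs of the culture.

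On the deposited scale most changed transcripts were higher under Fe deficiency, with a small set of very large changes in both directions. Changes are given as log2(TPM + 1) under Fe deficiency minus that in the normal supply, a scale that understates changes of low genes. Of the 11018 genes, 449 (4.08%) were higher by 2-fold or more and 134 (1.22%) lower by as much. In a moderated test in limma, with the recovered library spread pooled over the 5 tables, 641 genes rose (5.82%) and 163 fell (1.48%) at a Benjamini-Hochberg adjusted p under 0.05. Both criteria together were met by 400 genes that rose (3.63%) and 117 that fell (1.06%), and these are the changed genes described below. The 400 had a median log2 change of 1.35 and the 117 of -1.40.

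The upward balance lay in the many moderate changes and depended on the scaling. At 1.5-fold, 1478 genes were higher and 409 lower, and at 4-fold 63 and 28. At 8-fold the numbers were nearly equal, with 16 higher and 15 lower. At 16-fold, 8 genes were higher and 4 lower, and at 32-fold 3 were higher and 0 lower. The middle gene of the comparison lay 0.18 above 0 on the log2 scale, with 7671 of 11018 genes above 0. The median library contrast, taken over genes at 5 TPM or more as a shift common to all genes, corresponded to an SD of 0.010 between normal libraries and of 0.028 between Fe deficiency libraries on the same scale. Scaling both tables by median-of-ratios size factors removed a shift of 0.19. With it, 326 genes rose and 250 fell past the test, so the share of rises among called genes went from 79.7% to 56.6%, and among 2-fold changes from 77.0% to 60.5%. At 1.5-fold, size factors gave 836 higher and 786 lower. At 8-fold, size factors left 15 higher and 15 lower.

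**Figure D1:**
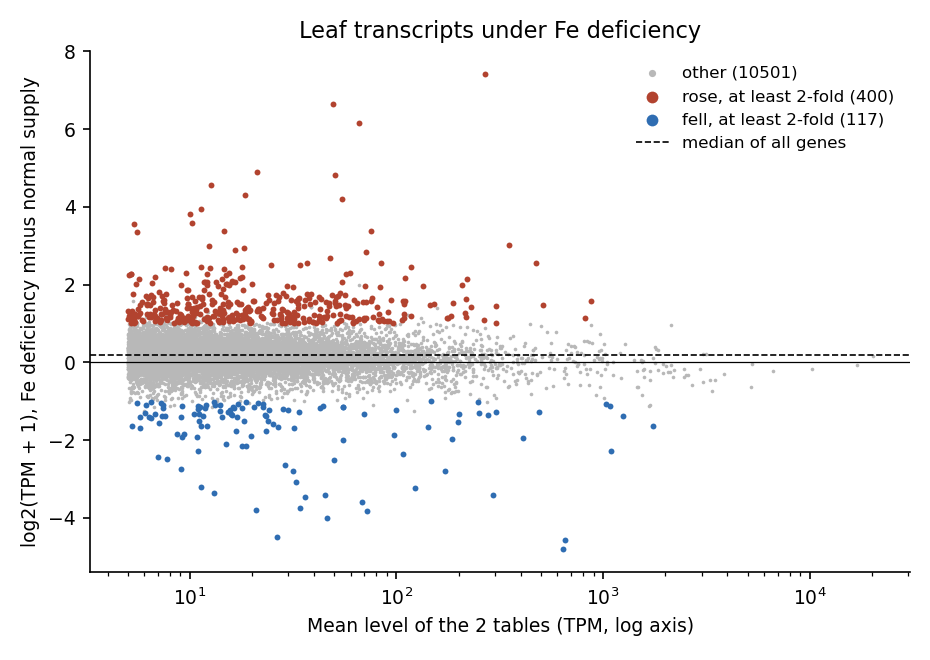
Each point is 1 of 11018 genes, by its mean level over both tables (TPM, log axis) and its change under Fe deficiency on the log2(TPM + 1) scale, with the 400 genes that rose and the 117 that fell at least 2-fold past the test in colour. The dashed line at 0.18 is the median of all genes, and genes past 8-fold lie on both sides in near equal number (16 and 15).

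The minimum of 5 TPM fell in a dense range of levels. Just below it, 1123 genes had a mean of 4 to 5 TPM, of which 39 were 2-fold or more higher and 8 lower. Just above it, at 5 to 6 TPM, the numbers were 38 and 6 of 1001 genes. The nearest genes on either side had means of 4.999 and 5.001 TPM.

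The direction of change varied with the abundance of the transcript. Among the 3758 genes at a mean of 5 to 10 TPM the median log2 change was 0.20, and 123 were at least 2-fold higher against 29 lower (80 and 53 with size factors). The median then declined through 0.19, 0.14, 0.077 and 0.050 in the classes up to 30, 100, 300 and 1000 TPM. In the 65 genes at 1000 TPM or more it was -0.19, and 49 of them lay below 0. With size factors the median was 0.035 in the lowest class and -0.38 in the highest. Such scaling moves all genes by nearly the same amount, so it could not change the order of these 2 classes. Of these abundant genes, 0 were higher by 2-fold or more and 7 were lower by as much, or 10.8% of the class beside 1.22% of all genes. Past the test, 6 of the 65 fell, among them 5 of these 7, and 1 rose. With size factors, 9 of the 65 were at least 2-fold lower and 0 higher.

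The 7 abundant genes at least 2-fold lower stood at 1401 to 2633 TPM in the normal supply and at 371 to 1072 TPM under Fe deficiency, values that describe the genes the size of change had chosen. The single abundant gene that rose past the test went from 1446 to 2795 TPM. All 65 together took up 18.6% of clean tags in the normal supply and 16.3% under Fe deficiency. As a sum this was 186169 against 162930 TPM, with a spread between libraries of 8784 and 1456 TPM (SD, from 1 contrast each). The same genes held 16.5% of clean tags with Zn excess, 16.7% with Cd exposure and 18.0% with Zn deficiency. As sums these were 165494, 166622 and 179934 TPM, with spreads between libraries of 6379, 5018 and 33862 TPM (SD, from 1 contrast each). With a spread this wide, the Zn deficiency sum cannot be placed above or below the others. Because TPM is a share of all tags, a fall of abundant transcripts and a rise of the others are not independent measurements.

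**Figure D2:**
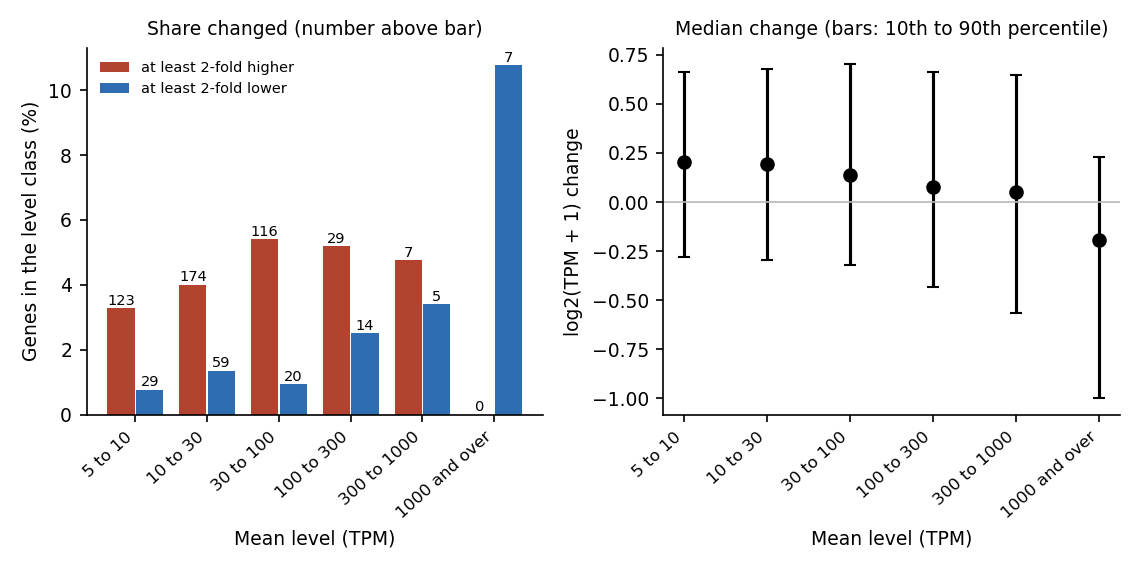
Left, the percentage of genes at least 2-fold higher or lower under Fe deficiency in 6 classes of mean level (TPM), with the number of genes above each bar. Right, the median log2(TPM + 1) change of each class with bars from the 10th to the 90th percentile: the median goes from 0.20 at 5 to 10 TPM to -0.19 at 1000 TPM and over, where 7 genes were lower and 0 higher.

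In linear terms, the genes that gained summed to a gain of 80140 TPM and those that lost to a loss of 66267 TPM, over all 27336 genes listed. The spread between libraries of these 2 groups, both tables combined, was 9000 and 9734 TPM (SD, from 1 contrast per table). Genes were sorted by the sign of their own change, so spread between libraries adds to both sums. The size of that part was not tested. The losses were concentrated. The 10 genes with the largest losses carried 21.7% of the lost TPM and the first 100 carried 65.5%, and 41 genes made up the first 50% of the loss. The gain was spread over more genes, with 10.5% in the first 10, 30.7% in the first 100, and 436 genes needed for 50%. Of the 10 largest losses, 5 passed the test and were at least 2-fold, and of the 10 largest gains 6 did. Of the first 100, both rules were met by 24 of the losses and 36 of the gains. The test was passed by 30 and 48 of them. The largest gain of any gene was in the most abundant one, from 18973 to 21288 TPM, and was not past the test (adjusted p = 0.774, limma). The spread between its normal libraries was 5685 TPM (SD, from 1 contrast), more than its change of 2315 TPM. With size factors the gain was 46876 TPM and the loss 109285 TPM, so which of the sums is larger depends on the scaling.

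Bra004609 had the largest rise among changed genes whose tags were whole in every table, with no fraction that sharing with a similar gene would leave. It had 0 tags in each of the 3 normal libraries and 1722 tags over the 3 Fe deficiency libraries, a level of 98.8 TPM. Against a floor of 3 tags over the normal libraries (0.172 TPM) it was at least 576-fold higher. The test was of its change in log2(TPM + 1), 6.64 (SE 0.45, adjusted p = 4.58e-05, limma). Bra004609 was also listed at 0 under Zn deficiency and Cd exposure and stood at 114 TPM under Zn excess. Its own spread in the test thus came from Fe deficiency and Zn excess alone. The gene varied between the Fe deficiency libraries by 64.2 TPM (SD, from 1 contrast), with the lowest-total library above the weighted mean of the other 2.

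Bra013088 had the largest gain in TPM among the changed genes. It stood at 439 TPM in the normal supply and at 1303 TPM under Fe deficiency, which took it from place 142 to place 47 in the order of levels. The log2 change was 1.57 (SE 0.30, adjusted p = 0.00754, limma), 2.97-fold. Its normal level had a spread of 254 TPM between libraries and its Fe deficiency level one of 151 TPM (SD, from 1 contrast each). In the other tables it was at 158 TPM with Cd exposure, 320 TPM with Zn excess and 938 TPM with Zn deficiency.

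Bra013863 had the largest fall among changed genes with whole tags in every table. It was at 1255 TPM in the normal supply, with a spread of 110 TPM between libraries, and at 52.2 TPM under Fe deficiency, with a spread of 13.5 TPM (SD, from 1 contrast each). It was therefore 24.0-fold lower (log2 change -4.56, SE 0.22, adjusted p = 3.16e-07, limma) and went from place 57 to place 1712 in the order of levels. Its level was 1332 TPM under Zn deficiency, 1122 TPM under Cd exposure and 183 TPM under Zn excess.

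Bra016459 had the largest loss in TPM among the changed genes. It went from 2633 TPM (spread between libraries 597 TPM) to 847 TPM (spread 44.1 TPM), 3.11-fold lower (adjusted p = 0.00115, limma; log2 change -1.63, SE 0.22). Part of its tags were fractions, so some may belong to a similar gene. With 50 µM Zn it stood at 923 TPM, with Cd at 1727 TPM and with little Zn at 2544 TPM. In each of these 4 genes the Fe deficiency and normal values lay apart by more than the spread between libraries of both tables added together. The genes were chosen as the largest changes past a test that uses this spread. Such a gap therefore describes the choice and adds no support to the test.

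**Figure D3:**
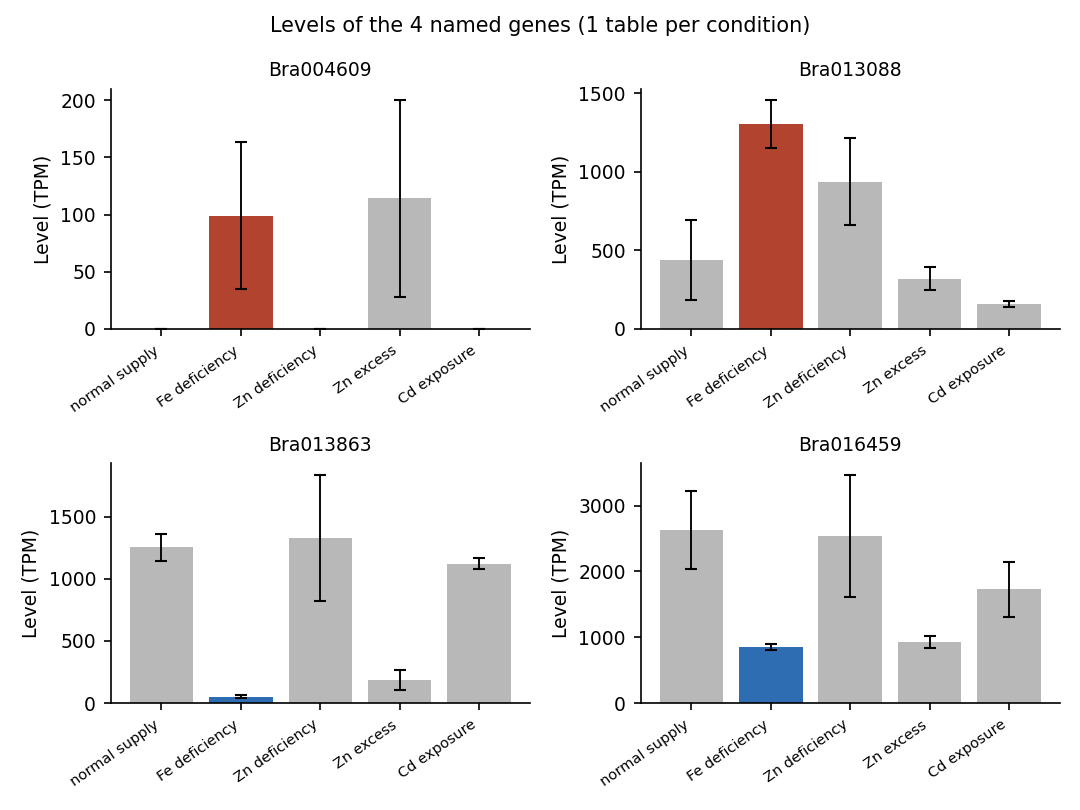
Bars give the level (TPM, from 0) of the 4 named genes in the 5 tables, with the Fe deficiency bar coloured, and error bars the SD between the libraries of a table estimated from 1 contrast. Bra004609 reached 98.8 TPM from 0 and Bra013088 rose to 1303 TPM, while Bra013863 fell to 52.2 TPM and Bra016459 to 847 TPM.

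Most genes that rose at least 8-fold were scarcely detected in the normal supply, while those that fell as far remained detected under Fe deficiency. The 16 that rose this far had a median of 0.802 TPM in the normal supply, where 14 were under 5 TPM and 2 were at 0, and of 39.1 TPM under Fe deficiency, where the lowest was at 10.8 TPM. The 15 that fell this far had a median of 83.0 TPM in the normal supply, from 21.3 to 1255 TPM. Under Fe deficiency their median was 6.13 TPM, from 1.34 to 52.2 TPM, and 6 of them were under 5 TPM. All genes of both sets passed the test, which is to be read as a description since the size of change chose them. The minimum mean of 5 TPM also shaped both sets. A gene under 5 TPM in 1 table was compared only if its level in the other was high enough. The lowest level of the 16 under Fe deficiency thus partly reflects this filter. Fractional tags, which may be shared with a similar gene, occurred in 7 of the 16 and 2 of the 15. The other tables were not used in choosing them. Under Zn excess the 16 had a median of 40.0 TPM and the 15 one of 11.1 TPM. Under Zn deficiency the medians were 0.319 and 89.0 TPM, and under Cd exposure 1.14 and 86.2 TPM.

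The levels of all changed genes were also set beside those in the tables that had not chosen them. The choice of genes fixed the place of Fe deficiency above the normal supply for rises and below it for falls. The median level of the 400 genes that rose was 8.95 TPM in the normal supply and 26.6 TPM under Fe deficiency. It was 13.0 TPM under Zn deficiency, 11.2 TPM under Zn excess and 6.70 TPM under Cd exposure, so the Fe deficiency median was the highest of the 5 and the Cd exposure median the lowest. The 117 genes that fell had a median of 29.2 TPM in the normal supply and of 8.53 TPM under Fe deficiency. Their median was 12.9 TPM under Zn excess, 25.8 TPM under Zn deficiency and 25.7 TPM under Cd exposure. The median of all 11018 genes ranged over the 5 tables from 12.4 TPM (Cd exposure) to 15.6 TPM (Fe deficiency). The first 2 tables chose these groups, so their values there are a description, and differences from the other treatments were not tested.

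**Figure D4:**
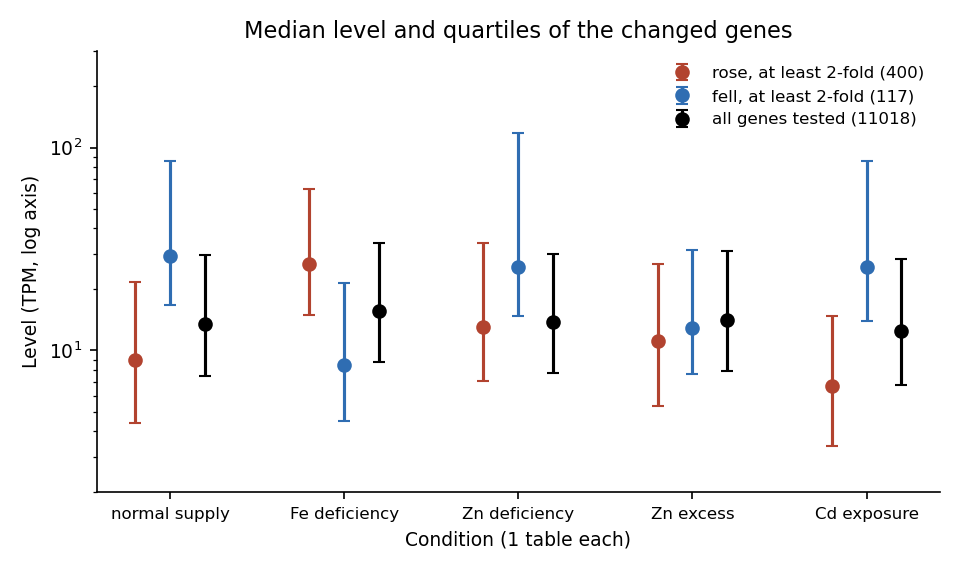
Points give the median level (TPM, log axis) of the 400 genes that rose, the 117 that fell and all 11018 genes tested in each of the 5 tables, with bars from the lower to the upper quartile over genes. The risen genes go from 8.95 to 26.6 TPM and the fallen ones from 29.2 to 8.53 TPM under Fe deficiency, while under Zn excess the fallen genes are at 12.9 TPM.

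The libraries averaged in a table did not agree equally well for changed and other genes. Among the 400 genes that rose, the median library contrast in the normal supply was -24.8% of the level, against 0.571% for all genes, and it was below 0 in 78.2% of them against 48.8%. A negative value means that the library with the lowest total was above the weighted mean of the other 2. A contrast larger than 50% in size was found in 23.4% of the risen genes and in 3.11% of all genes. Under Fe deficiency the risen genes had a median contrast of 7.93%, against -2.11% for all genes. The 117 fallen genes showed 4.89% in the normal supply and 24.6% under Fe deficiency. In the Fe deficiency table, 27.4% of the fallen genes exceeded 50% in size, beside 8.75% of the risen genes and 7.34% of all genes. In the normal supply 0.855% of the fallen genes did. For both groups a wide contrast was thus more frequent in the table where the group was lower. Under Fe deficiency the median contrast was -29.4% in the 16 genes that rose at least 8-fold, opposite in sign to that of all 400 risen genes, and 60.5% in the 15 that fell as far. For the median gene, the lowest-total Fe deficiency library was thus above the weighted mean of the others in the 16 and below it in the 15.

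The number of changed genes was smaller, in nearly the same ratio of rises to falls, when genes with a wide contrast were left out, a setting chosen after seeing the data. Without the 1080 genes that exceeded 50% in either table, 290 of 9938 genes (2.92%) rose and 84 (0.845%) fell at least 2-fold past the test. Changed genes were more frequent among the 1080 left out, where 110 (10.2%) rose and 33 (3.06%) fell by the same rules. With the spread taken from the 2 tables alone, 387 genes rose and 126 fell, against 641 and 163 with the pooled spread. The test treats genes one by one and takes the spread of a gene as alike in the 5 tables after scaling. Where 1 library differs for many genes together, its part in the result was not tested.

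**Figure D5:**
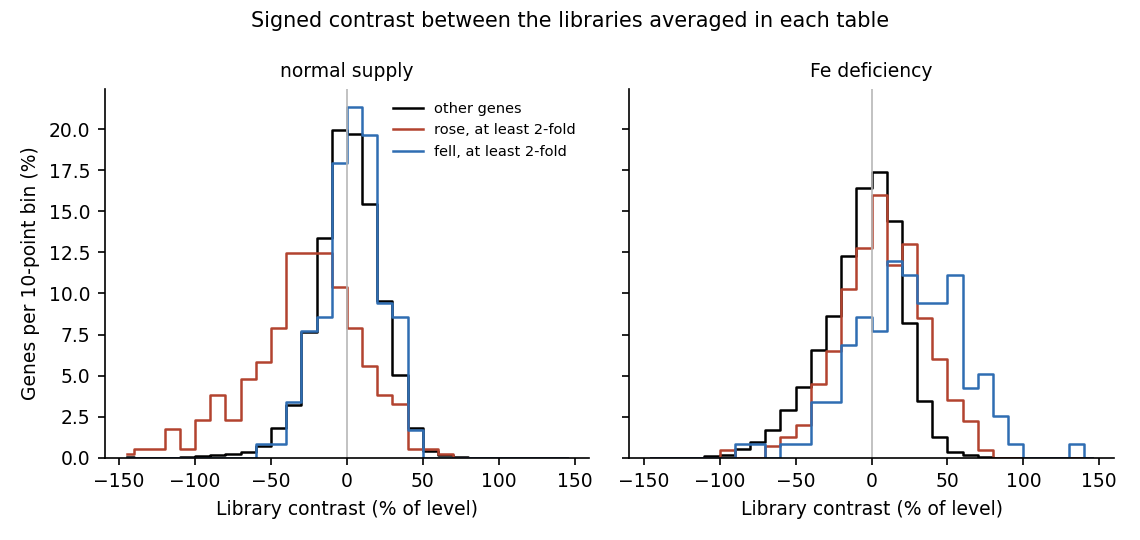
Lines give the percentage of genes in bins of 10 points of the signed library contrast (% of the level) in the normal supply (left) and under Fe deficiency (right), for the 400 risen, the 117 fallen and the other genes, with values beyond the axis drawn in the outermost bins. The risen genes are shifted to a median of -24.8% in the normal supply and the fallen genes to 24.6% under Fe deficiency.

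Genes with shared tags were changed in proportions near those of the others. Of the 11018 genes, 3342 had fractional tags in at least 1 of the 2 tables, the form that tags split between matching genes would take. Among them, 146 (4.37%) were 2-fold or more higher and 34 (1.02%) lower, beside 303 (3.95%) and 100 (1.30%) of the 7676 genes with whole tags. Their median log2 changes were 0.16 and 0.18.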

How the data were processed

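Tag-based digital gene expression was measured in leaf RNA. Per the file headers, the authors deposited for each condition the number of clean tags per gene, here treated as estimated counts since they are means and fractions, and TPM, tags per 1000000 clean tags. Aligner, genome build and annotation: not given in the sources used here. Genes not listed in a table were set to 0. The library totals (5637735 to 5997199 clean tags in the 2 tables) were recovered from genes with 1 tag in 1 library, which fell on 3 common TPM values in 85.3% (normal supply) and 95.2% (Fe deficiency) of cases. The tag mean minus TPM times the mean total then gave 1 contrast between libraries per gene and table. The middle library had 37.8% and 42.9% of the weight of the lowest-total one, so its deviations are partly missed. Under Zn deficiency, Zn excess and Cd exposure, which enter the pooled spread, it had 2.48%, 6.99% and 1.53%. There the contrast sets the lowest-total library against the highest, and the middle one is almost wholly missed. Each squared contrast was divided by its expected value at that level, pooled over the 5 tables where the gene had at least 0.5 TPM, and moderated with limma 3.58.1 in R 4.3.3 (median of 12.3 degrees of freedom). Differences of log2(TPM + 1), with a pseudocount of 1, were tested with Benjamini-Hochberg adjustment over all 11018 genes. A tag sum was called whole within 0.0001 tag of the mean, wider for large values. Scripts ran in Python 3.11.15, and the test was tested on simulated data. Genes varied independently there, so the simulation does not cover 1 library that differs for many genes together. Intervals and floors cover counting error only. p-values measure the spread between replicate pools, which may be partly technical. No gene lists were used, since no identifier could be paired with a name. The genes named are, in each direction, the largest log2 change without fractional tags in any table and the largest TPM change, among genes at least 2-fold changed with an adjusted p under 0.05. Members, lists and the test were chosen with earlier results of these data known. Alternatives were other pseudocounts, filters, fold sizes, size factors, whole-tag genes and the spread from the 2 tables alone.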

Additional observations from a re-analysis of the deposited data

How the results depend on the processing

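Alternatives gave 40 counts, of which 24 lay within 1.5 times the one reported. The 16 values of the named genes kept their direction and stayed past the test, but leaving out wide contrasts was not among their settings. That setting leaves out both named genes that rose, Bra004609 (contrast -65.0% under Fe deficiency) and Bra013088 (-57.9% in the normal supply). For 2-fold changes (449 higher, 134 lower), a pseudocount of 5 gave 256 and 81, a minimum mean of 20 TPM 192 and 62, 4-fold 63 and 28, and 1.5-fold 1478 and 409. Past the test (641 rose, 163 fell), a minimum mean of 20 TPM (fewer genes tested) gave 313 and 85, size factors 326 and 250, and an adjusted p under 0.01 250 and 83. Rises numbered 419 among genes with no fractional tags, a smaller set, and 387 with the spread from the 2 tables alone. The median log2 change (0.18) was 0.14 with a pseudocount of 5, 0.10 without a filter, 0.13 with a minimum of 20 TPM and 0 with size factors, which set it there by construction. The gain of 80140 TPM and the loss of 66267 TPM became 46876 and 109285 with size factors, and 53129 and 43813 among genes with no fractional tags. Otherwise the cause was not tested. No paired analysis was possible because only a mean of the 3 libraries was at hand for each condition, which also prevented leaving out a replicate or fitting a count model.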

Other observations

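Genes listed at 0 in only 1 of the 2 tables were mostly at the limit of detection. There were 1505 with tags under Fe deficiency only, at a median of 0.118 TPM, and 1294 with tags in the normal supply only, at a median of 0.113 TPM. At least 1 TPM was reached by 22 of the former and 8 of the latter, and at least 5 TPM by 6 and 1. The highest were at 98.8 TPM and 6.88 TPM. For genes with 9 to 36 whole tags in the listed condition, both columns together were solved for the tags in each library. Under Fe deficiency 78 of 79 such genes had a single solution for their tags, which lay in all 3 libraries for 51 and in 2 libraries for 27. In the normal supply all 37 had one, which gave tags in all 3 libraries for 23 and in 2 for 14. These genes lie below the 5 TPM minimum of the comparison and were not tested.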
